A study of Mus musculus with 3 samples.

Results

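The genes described here are 48 genes of red cell formation, of platelets and megakaryocytes, and of blood stem and progenitor cells, set out by role and measured in cells sorted from mouse bone marrow. They were chosen by symbol, and a gene counted as measured when at least 4 probesets named it and no other gene. This held for 43 of the 48, among 18865 measured genes in all. The cells were GFP-positive bone marrow cells of C57BL/6 mice in which GFP is driven by the nestin promoter, freshly isolated and sorted, and the 3 arrays form 1 group with no control group. The reporter marks cells by promoter activity rather than by lineage, so cells of any type that carry GFP, or that pass the gate with them, contribute to the RNA. Nothing in the labels says whether the 3 samples came from separate mice, so the spread between arrays and the p-values may reflect technical variation only.

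Red cells are made in the marrow from progenitors that pass through erythroblast stages under the control of erythropoietin and of the transcription factors GATA1 and KLF1. Erythroblasts fill with haemoglobin, an assembly of alpha and beta globin chains with heme, and build a membrane skeleton of spectrin, ankyrin and band 3 that carries the blood group proteins. Platelets are shed by megakaryocytes, which share a progenitor and several transcription factors with the red cell lineage. Heme is made by almost every cell, so most of its enzymes are not restricted to red cells, whereas the aminolevulinate synthase encoded by Alas2 is the red cell form of the first enzyme.

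GATA1 binds DNA at short GATA motifs that are common in red cell and megakaryocyte promoters, and the promoters below are shown because they belong to genes whose values are described next. RefSeq promoters on build GRCm38.p6 were used for 36 of the 48 genes, and the 250 bases before the transcription start were searched for AGATAA on both strands (TTATCT on the other strand). Promoters of the 48 genes on 1 chromosome were left out, while the shares over all genes kept that chromosome. The letters occurred in 8 of these 36 genes (22.2%), against 11.4% of 27025 genes in the table. Counted per promoter, they occurred in 8 of 41 (19.5%), against 9.99% of 32851. They were found in 1 of 11 genes called above background (9.09%) and in 6 of 22 measured genes that were not called (27.3%). Only 11 of the 17 called genes had a promoter here. The split was not made over all genes, so no difference is read from it. Capitals mark the match, and each run reads 5′ to 3′ on the gene's strand. Hba-a1, an alpha globin gene, has no AGATAA in this window and is shown beside genes that do, namely Alas2, the erythropoietin receptor gene Epor, the blood group gene Kel and the protein 4.2 gene Epb42. Only these letters were searched. Other letters around GATA, such as the tgataa in the Hba-a1 run, were not counted, so no match does not mean no GATA motif. A match is a description of the letters and says nothing of binding in these cells.
Alas2, chrX:150547167-150547416, plus strand: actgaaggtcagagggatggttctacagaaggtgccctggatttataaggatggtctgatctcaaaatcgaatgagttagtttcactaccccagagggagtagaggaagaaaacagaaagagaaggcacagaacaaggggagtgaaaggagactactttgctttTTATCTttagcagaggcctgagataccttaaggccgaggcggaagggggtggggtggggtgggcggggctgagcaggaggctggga
Epor, chr9:21963577-21963826, minus strand: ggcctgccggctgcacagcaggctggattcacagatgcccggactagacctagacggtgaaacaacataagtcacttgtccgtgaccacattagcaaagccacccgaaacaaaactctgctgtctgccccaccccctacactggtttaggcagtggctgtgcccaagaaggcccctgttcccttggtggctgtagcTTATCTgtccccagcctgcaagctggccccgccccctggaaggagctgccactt
Kel, chr6:41704326-41704575, minus strand: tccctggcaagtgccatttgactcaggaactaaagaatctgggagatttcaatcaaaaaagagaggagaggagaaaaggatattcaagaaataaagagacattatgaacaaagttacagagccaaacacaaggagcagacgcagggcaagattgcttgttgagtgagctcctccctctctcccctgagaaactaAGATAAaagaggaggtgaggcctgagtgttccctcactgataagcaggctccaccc
Epb42, chr2:121036878-121037127, minus strand: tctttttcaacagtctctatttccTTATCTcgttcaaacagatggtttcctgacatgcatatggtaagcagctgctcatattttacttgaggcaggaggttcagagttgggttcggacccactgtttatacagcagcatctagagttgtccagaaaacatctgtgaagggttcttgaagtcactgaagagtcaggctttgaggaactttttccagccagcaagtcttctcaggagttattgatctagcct
Hba-a1, chr11:32283422-32283671, plus strand: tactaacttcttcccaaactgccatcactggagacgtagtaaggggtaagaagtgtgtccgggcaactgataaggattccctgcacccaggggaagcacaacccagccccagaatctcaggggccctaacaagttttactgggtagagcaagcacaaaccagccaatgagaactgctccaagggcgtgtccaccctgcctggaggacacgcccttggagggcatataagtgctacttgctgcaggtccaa

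Values are log2 expression values per probeset that the authors deposited, and a gene's value on an array is the median of its probesets. Because there is no second group, each gene was set against a threshold of the same array, the 95th percentile of 355 chemosensory receptor genes that marrow cells should not express. This threshold (log2) stood at 5.40, 5.66 and 5.64 for arrays 1, 2 and 3, and margins below are a gene's value minus the threshold of its array. A gene was called above background at an adjusted p below 0.05 in a one-sided limma fit, with p-values adjusted by Benjamini-Hochberg over all 18865 genes. By this rule 9 of the 355 background genes were called, a count kept low by construction, since the same genes set the threshold. Of 34 hepatocyte, photoreceptor and spermatid genes, which did not set it, 3 were called. Perivascular stroma markers, a check of the labelled source, gave 11 of 12 calls, among them Cxcl12 at 11.77, 11.89 and 11.61 on arrays 1, 2 and 3. The uncalled marker was Nes itself, at 5.97, 5.21 and 5.56. Probes differ in affinity, so no gene's level is set against that of another gene. Array medians over all 1256831 probesets lay between 5.20 and 5.24, and arrays correlated across genes at r of 0.933 to 0.947, where genes are not independent replicates.

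Beta globin, 4 heme enzymes, mitoferrin-1, glycophorin C and carbonic anhydrase 2 were called above background, with 9 further genes of the regulator, platelet and progenitor groups, while 26 of the 43 genes were not called. Of the 43 measured genes 17 were called (39.5%), against 50.6% of all genes, and each of the 17 lay above the threshold on all 3 arrays. A further 5 lay above it on all 3 arrays without passing the test, giving 22 of 43, against 55% of all genes. The globin and heme group had 6 of 10 called, the red cell membrane and carbonic anhydrase group 2 of 11, the erythroid regulators 1 of 4, the platelet group 4 of 8 and the progenitor group 4 of 10. A stricter threshold, the 95th percentile of 34 hepatocyte, photoreceptor and spermatid genes, left 2 of the 43 genes called, namely Hbb-b1 and Gypc, against 17.6% of all genes. The total of 17 fell to 11 without array 1, where 45.4% of all genes were called. It was 9 when genes with 2 or 3 probesets were admitted, which raised the threshold and left 37.0% of all genes called. In bulk RNA, fewer cells of a type and less RNA per cell cannot be told apart.

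The median margin of the globin and heme group was 0.67 ± 0.20 (SD, n = 3 arrays, log2), against 0.50 ± 0.15 for all genes. Platelet genes had a median margin of 0.42 ± 0.31, red cell membrane genes 0.03 ± 0.20, erythroid regulators -0.16 ± 0.15 and progenitor genes -0.21 ± 0.23. These medians describe each group against the background threshold. They cover different probes, and no difference between them was tested.

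**Figure D1:**
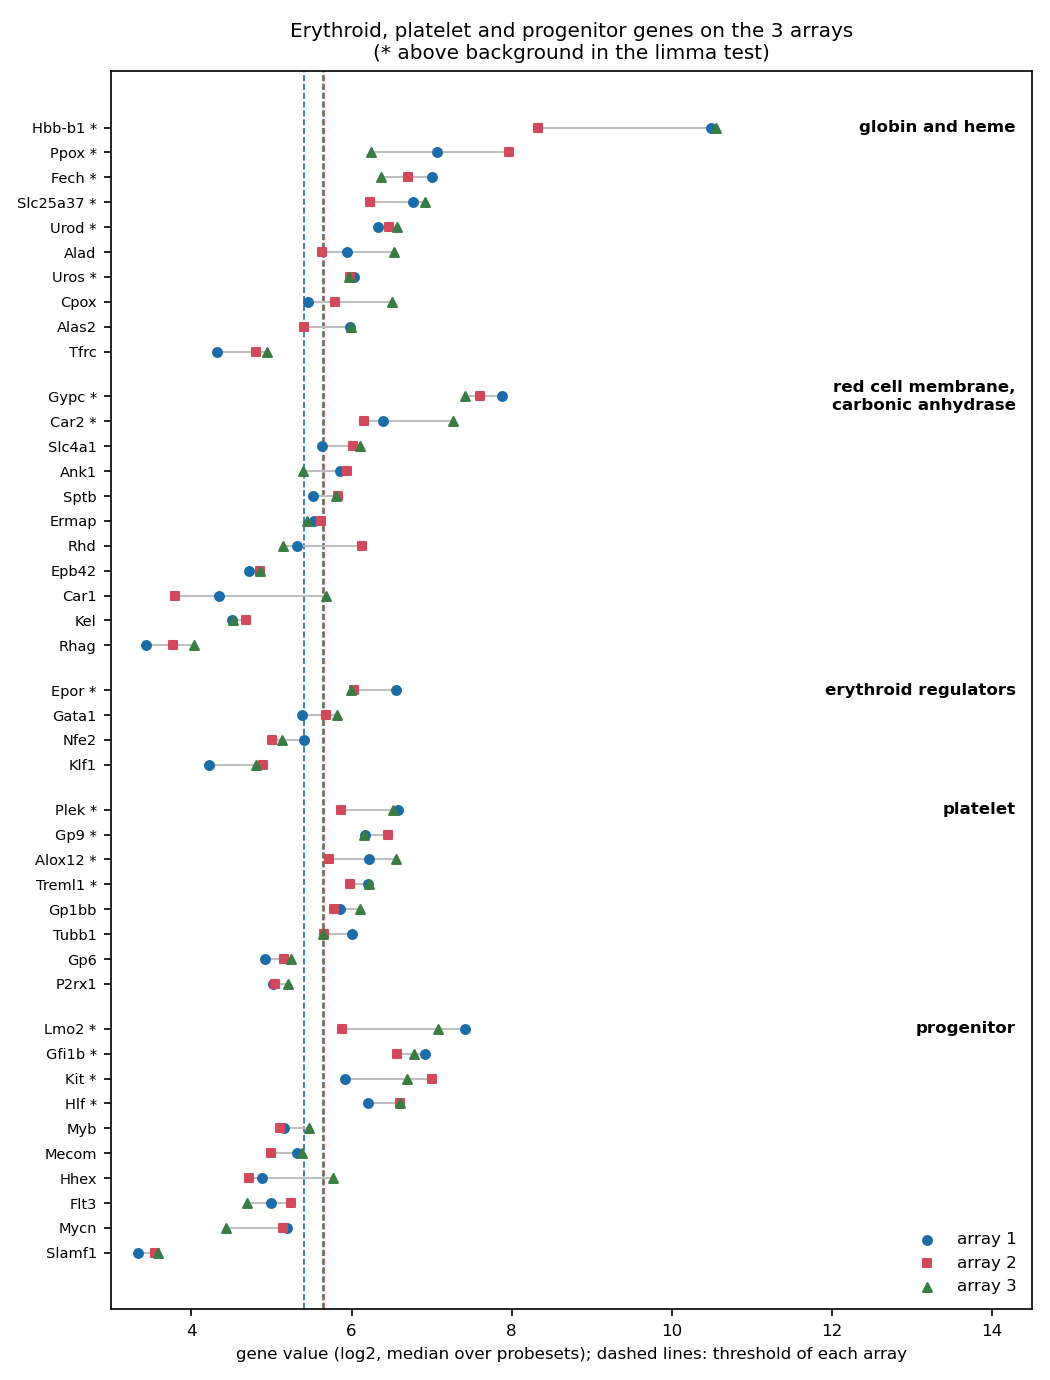
Value of each of the 43 measured genes on the 3 arrays (horizontal axis, log2, median over probesets), grouped by role, with circles for array 1, squares for array 2, triangles for array 3 and a dashed line at the threshold of each array. Asterisks mark the 17 genes called above background; Hbb-b1 stands apart to the right, with its array 2 value of 8.33 below those of arrays 1 and 3.

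The beta globin gene Hbb-b1 lay far above the threshold. It stood at 10.49 on array 1, 8.33 on array 2 and 10.56 on array 3, with a margin of 4.23 ± 1.35 (SD, n = 3) and an adjusted p of 2.7e-05 (limma). Array 2 was well below the other arrays, although still above its threshold. The 4 probesets behind this value name Hbb-b1 alone, but beta globin genes are near-identical copies, and C57BL/6 mice carry beta globin alleles that have names of their own, so the value stands for beta globin rather than for 1 copy. The alpha globin gene Hba-a1 had no probeset of its own, since all 10 of its probesets also name Hba-a2. Ahsp, the alpha globin chaperone gene, had no probeset under that symbol here.

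Alas2, the red cell form of the first heme enzyme, was not called. Its values were 5.99, 5.41 and 6.00 on arrays 1, 2 and 3, so that array 2 lay below its threshold (adjusted p = 0.273, limma). Of the 6 later enzymes, which other cells also use, 4 were called. Urod, uroporphyrinogen decarboxylase, had 6.34, 6.47 and 6.57 (adjusted p = 0.0015, limma), with little spread between arrays. Fech, which inserts iron into the ring, had 7.01, 6.70 and 6.36 (adjusted p = 0.0013). Ppox, protoporphyrinogen oxidase, varied most among the enzymes, with 7.06, 7.97 and 6.24, and was called (adjusted p = 0.0015). Unlike Hbb-b1, it was highest on array 2. The probesets of Ppox differed in this, with 1 at 4.86, 9.83 and 5.35 and another at 8.09, 8.09 and 7.79. Uros, uroporphyrinogen III synthase, was called with 6.03, 5.98 and 5.97 (adjusted p = 0.048, limma), and this call was lost when any 1 array was left out (adjusted p = 0.109 to 0.121).

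Alad and Cpox, which encode the second enzyme and coproporphyrinogen oxidase, did not pass. Alad had 5.95, 5.63 and 6.53 (adjusted p = 0.065, limma) and Cpox 5.46, 5.79 and 6.50 (adjusted p = 0.133). Both were highest on array 3, and both passed when probesets were summarised by their mean rather than their median (adjusted p = 0.00098 and 0.0059, limma). The iron genes differed. Slc25a37, the mitochondrial iron importer mitoferrin-1 that erythroblasts use in quantity, had 6.76, 6.23 and 6.91 and was called (adjusted p = 0.0016). Tfrc, the transferrin receptor that erythroblasts carry at high density, had 4.33, 4.81 and 4.95, below the threshold on all 3 arrays.

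Among the 11 genes of the red cell membrane and carbonic anhydrase group, Gypc and Car2 were called, 2 of 11 (18.2%), against 50.6% of all genes. Gypc encodes glycophorin C, which ties the membrane to its skeleton and is not restricted to red cells. It had 7.88, 7.60 and 7.41 on arrays 1, 2 and 3, with a margin of 2.06 ± 0.37 (SD, n = 3) and an adjusted p of 2.5e-05 (limma), and the arrays lay close together. Car2, a carbonic anhydrase also found in osteoclasts and other cells, had 6.39, 6.15 and 7.27 (adjusted p = 0.0033), with array 3 the highest. Its red cell relative Car1 had 4.34, 3.80 and 5.68, and array 3 alone lay above its threshold.

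The genes for the band 3 and ankyrin complex lay around the threshold. Slc4a1, the gene of the anion exchanger band 3, had 5.63, 6.02 and 6.10, above the threshold on every array, but was not called (adjusted p = 0.084, limma). Sptb, which encodes erythroid beta spectrin, had 5.52, 5.83 and 5.80 (adjusted p = 0.353), and Ank1, which encodes erythrocyte ankyrin, had 5.85, 5.95 and 5.40 (adjusted p = 0.372). Epb42, the gene of protein 4.2, had 4.73, 4.86 and 4.86 and lay below the threshold on every array. With the mean over probesets Slc4a1 passed (adjusted p = 0.0029, limma), while Uros and Alox12 no longer did (adjusted p = 0.865 and 0.082).

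The blood group genes Ermap, Rhd, Kel and Rhag were not called by limma, and none of them had an unadjusted p below 0.05. Rhag, the Rh-associated glycoprotein gene, had 3.44, 3.77 and 4.03, far below the threshold. Kel, the gene of the Kell endopeptidase, had 4.50, 4.68 and 4.52. Ermap, the Scianna blood group gene, had 5.54, 5.62 and 5.44, close to the threshold on each array. Rhd, the gene of the Rh antigen, had 5.32, 6.14 and 5.14, with array 2 alone above its threshold.

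Of the 4 erythroid regulators only the receptor gene Epor was called, against 50.6% of all genes. Epor had 6.55, 6.04 and 5.99 (adjusted p = 0.022, limma), with array 1 the highest, and the call was lost without array 1 (adjusted p = 0.094). Gata1, the master regulator of the lineage, had 5.38, 5.68 and 5.82, a mean margin of 0.06 (adjusted p = 0.603). Klf1, the activator of adult beta globin, had 4.22, 4.90 and 4.81 and lay below the threshold on all arrays. Nfe2, which encodes a subunit of a factor used by erythroblasts and megakaryocytes, had 5.40, 5.01 and 5.13, and its array 1 value lay at the threshold.

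In the platelet group 4 of 8 measured genes were called, close to the share of all genes (50.6%). None of the 4 passed the stricter threshold, which 17.6% of all genes passed. Gp9, a subunit of the von Willebrand factor receptor, had 6.17, 6.45 and 6.15 (adjusted p = 0.0063, limma). Plek, the gene of pleckstrin, which leukocytes also express, had 6.58, 5.87 and 6.51 (adjusted p = 0.012). Alox12, the platelet 12-lipoxygenase gene, had 6.21, 5.71 and 6.55 (adjusted p = 0.029). Treml1, a receptor of platelet granules, had 6.20, 5.98 and 6.21 (adjusted p = 0.019). All of these were lowest on array 2 except Gp9, which was highest there. The count of 4 fell to 1 without array 1, where Gp9 alone passed, and to 2 without array 3.

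Other parts of the same receptor complex did not pass. Gp1bb, the beta subunit of glycoprotein Ib, had 5.86, 5.78 and 6.11 (adjusted p = 0.093, limma), above the threshold on all arrays. The other subunit genes had too few probesets to be measured. Gp1ba had 4.39, 4.28 and 4.29 over 3 probesets, and Gp5 had 4.90, 5.72 and 4.62 over 2. The collagen receptor gene Gp6 had 4.93, 5.15 and 5.24, and P2rx1, an ATP-gated channel of platelets, had 5.01, 5.05 and 5.21, both below the threshold on every array. Tubb1, the megakaryocyte beta tubulin gene, had 6.01, 5.66 and 5.65, with arrays 2 and 3 at the threshold.

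Among the progenitor genes Lmo2, Gfi1b, Kit and Hlf were called, 4 of 10, against 50.6% of all genes. None of the 4 passed the stricter threshold, which 17.6% of all genes passed. Lmo2, a partner of TAL1 in blood and endothelial cells, had 7.42, 5.88 and 7.08 (adjusted p = 0.0057, limma). Its array 2 value lay far below those of arrays 1 and 3, and the call was lost without array 1 (adjusted p = 0.069). Gfi1b, a repressor required for red cells and megakaryocytes, had 6.91, 6.57 and 6.78 (adjusted p = 0.00051), with an SD of 0.17. Kit, the receptor for stem cell factor on stem cells, progenitors and mast cells, had 5.92, 7.01 and 6.69 (adjusted p = 0.0025), with array 1 the lowest. Hlf, a transcription factor gene of stem cells that other tissues use as well, had 6.21, 6.60 and 6.61 (adjusted p = 0.0014).

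The other 6 measured progenitor genes did not pass. Slamf1, which encodes the stem cell antigen CD150, had 3.33, 3.54 and 3.58, far below the threshold on every array. The cytokine receptor gene Flt3 had 4.99, 5.24 and 4.70, and Myb, a regulator of progenitor growth, 5.16, 5.10 and 5.47. Mecom, a stem cell regulator that endothelial cells also express, had 5.32, 4.99 and 5.38, and Mycn, a MYC family gene, had 5.19, 5.14 and 4.43. Hhex, a homeobox gene of early blood and endothelial cells, had 4.88, 4.72 and 5.77, so that array 3 alone lay above its threshold. Angpt1r is not a symbol or synonym in the gene table used and had no probeset.

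A few genes varied widely between arrays. Over the 43 genes the median range between the highest and lowest array was 0.54 on the log2 scale, against 0.51 for all genes. A range above 1.48, the 95th percentile of all genes, was seen for Hbb-b1, Car1, Ppox and Lmo2. For each gene the value on array 2 was compared with the mean of arrays 1 and 3, after the median shift of all genes was removed. This difference was -2.21 for Hbb-b1, -1.38 for Lmo2, -1.22 for Car1 and 1.31 for Ppox. Each side rests on 1 or 2 arrays of the same group, so these are descriptions without a test.

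**Figure D2:**
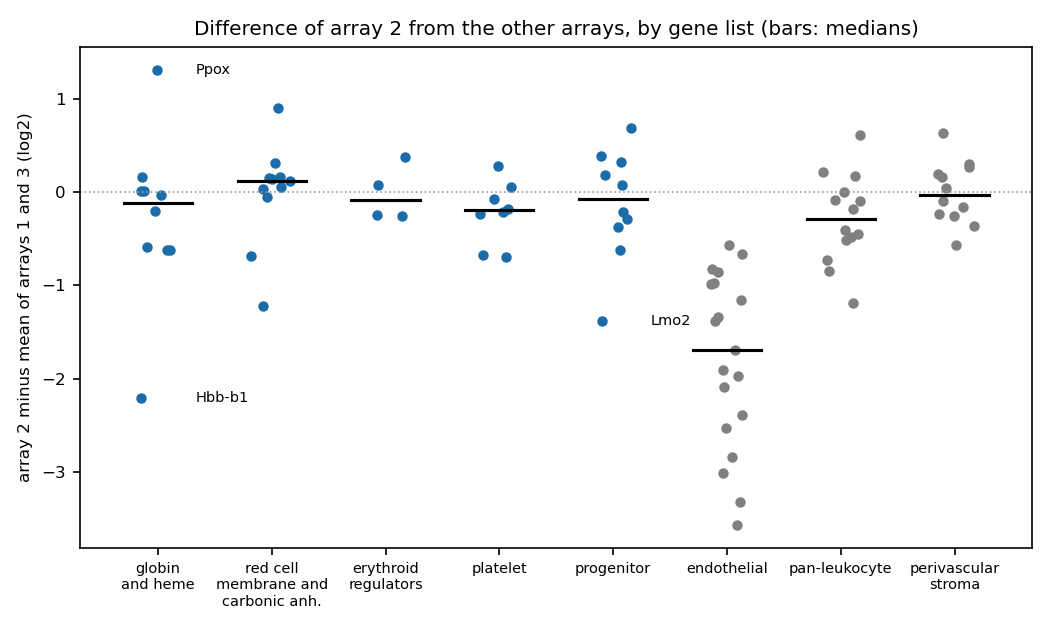
Difference of array 2 from the mean of arrays 1 and 3 (vertical axis, log2), 1 point per gene and a bar at the median, for the 5 groups (blue) and for endothelial, pan-leukocyte and perivascular stroma markers (grey). The medians of the 5 groups lie between -0.20 and 0.12, while the endothelial median is -1.69.

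By their medians, the groups did not share the low array 2 value of Hbb-b1, though some single genes were low there. The median difference was -0.12 in the globin and heme group, 0.12 in the red cell membrane group, -0.08 among the regulators, -0.20 in the platelet group and -0.07 in the progenitor group. With the median shift of each array removed, array 2 was the lowest array for 18 of the 43 genes (41.9%), against 34% of all genes. By group this held for 5 of 10 globin and heme genes and 2 of 11 red cell membrane genes. It held for 1 of 4 regulators, 5 of 8 platelet genes and 5 of 10 progenitor genes. Endothelial markers were low on array 2, as Hbb-b1 and Lmo2 were. All 19 measured endothelial markers were lowest on array 2, with differences from -0.57 to -3.57. Earlier results of these data had already put endothelial genes lowest on array 2, so this outcome was known when the list was chosen. Of the 19, 15 were called (78.9%), against 50.6% of all genes. Summed on the linear scale, they gave 4448, 1199 and 5588 for arrays 1, 2 and 3, and none was at 0 on the log2 scale. VE-cadherin (Cdh5) had 9.14, 6.05 and 9.58. Whether endothelial RNA has a part in the array 2 values of Hbb-b1 or Lmo2 was not tested.

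**Figure D3:**
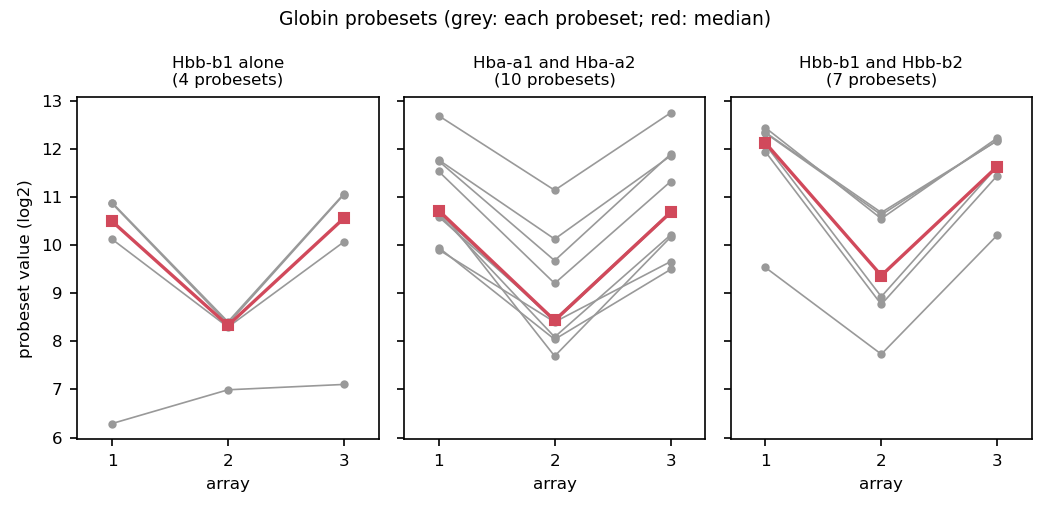
Values of single globin probesets (grey) and their median (red) on arrays 1 to 3 (vertical axis, log2), for the 4 probesets that name Hbb-b1 alone, the 10 that name both alpha globin genes and the 7 that name both beta globin genes. Array 2 is the lowest array for all but 1 of the 21 probesets, the lowest-lying one of Hbb-b1.

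Markers of other blood cells were set beside these values. Over all genes, 50.6% were called and array 2 was the lowest array for 34%. Pan-leukocyte markers gave 4 of 14 calls, with summed linear levels of 1604, 1575 and 1725 on arrays 1, 2 and 3. Among the called markers, Lcp2, a signalling adaptor gene, had 8.98, 8.48 and 7.96 (adjusted p = 1.2e-05, limma), and Rac2, a GTPase gene of blood cells, had 7.20, 6.38 and 6.43. The highest values in the list, 9.15, 9.60 and 9.60 on arrays 1, 2 and 3, lay above both and are of markers not named here. The defining marker Ptprc, the gene of CD45, had 4.54, 4.37 and 5.14, below the threshold on all arrays, so members of the list lay on both sides of it. Neutrophil and granulocyte precursor markers gave 7 of 11 calls and had their highest summed level on array 3, with 1718, 1809 and 3163. Monocyte and macrophage markers gave 3 of 13 calls, with sums of 822, 611 and 1272, and 3 of the 13 were lowest on array 2, with a median array 2 difference of 0.12. Mrc1, the mannose receptor gene, had 8.39, 4.44 and 9.15, low on array 2, whereas the lysozyme gene Lyz2 had 5.93, 6.72 and 8.03. Their part in the values of the 43 genes was not tested. Mast cell and basophil markers, set beside Kit because mast cells carry that receptor, gave 0 calls among 7 genes by limma. Of these 7, 0 had an unadjusted p under 0.05 and 0 exceeded the threshold on every array. Their summed linear levels were 191, 190 and 301, and Mcpt8, a basophil protease gene named for its value on array 3, had 5.60, 4.76 and 7.28. Fcer1a, a subunit gene of their IgE receptor, had 3.56, 3.0 and 2.71.

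A gene median can hide single bright probesets, and several of the uncalled genes had one. Of the 697 probesets of the 43 genes 77 lay above the 95th percentile of chemosensory probesets on all 3 arrays (11.0%), against 25.1% of the probesets of all genes. Among the 26 uncalled genes 5 had a probeset with a mean above 10 (19.2%), against 8.68% of all uncalled genes. These were Ank1, Rhd, Kel, Slc4a1 and Ermap, all of the red cell membrane group, and they are named because they met this level. In that order they had 64, 13, 22, 24 and 16 probesets, against a median of 13 over all measured genes. Shares of genes with such a probeset, here and below, were not matched for probeset number. Rhd had a probeset at 10.50, 10.64 and 10.67 on arrays 1, 2 and 3, while its next brightest averaged 6.95. Kel had one at 10.32, 10.53 and 10.63, with the next at 8.01.

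**Figure D4:**
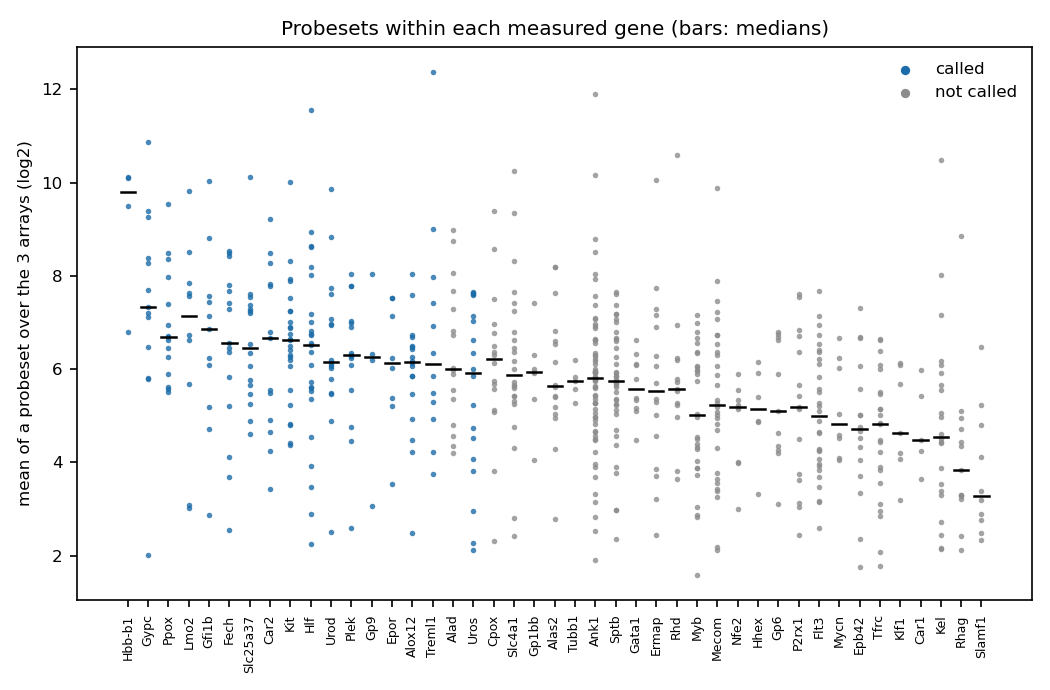
Mean of each probeset over the 3 arrays (vertical axis, log2) within each of the 43 measured genes, ordered by margin, with blue points for called and grey for uncalled genes and a bar at the median. Single points far above the bar stand out in Treml1 (12.37), Ank1 (11.89), Hlf (11.56), Rhd (10.60) and Kel (10.50).

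Among the 17 called genes 7 had such a probeset (41.2%), against 49.8% of all called genes. Treml1 had 1 probeset of 12 at 12.44, 12.28 and 12.39, steady across arrays, and its next brightest averaged 9.0, while the median of its probesets was 6.10. Hlf had one at 11.38, 11.92 and 11.38, with the next at 8.95. Hbb-b1 differed from these, as 3 of its 4 probesets averaged between 9.49 and 10.12 and the remaining one 6.79. Gypc had 5 of 13 probesets above the probeset threshold on all arrays and Gfi1b 4 of 11. What else the bright probesets detect was not tested.

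Further genes of the same lineages were measured beside the 48. Of 22 other measured erythroid and iron genes 9 were called (40.9%), against 50.6% of all genes. Among the 9 was Trf, the transferrin gene, at 11.30, 11.63 and 11.29 (adjusted p = 2.7e-07, limma). Prdx2, the peroxiredoxin gene of red cells and many other cells, had 10.17, 9.86 and 9.80 and was called (adjusted p = 5.4e-07), and so was the iron transporter gene Slc11a2, with 7.99, 7.17 and 7.63 (adjusted p = 6e-05). These called genes are not restricted to red cells. The erythroblast gene Cldn13 had 4.51, 4.54 and 4.75. Of 23 other megakaryocyte and platelet genes 6 were called (26.1%), also below the share of all genes. The called genes with the widest margins were the tetraspanin gene Cd9, with 8.97, 7.95 and 8.37, the thrombospondin gene Thbs1, with 8.41, 8.16 and 8.21, and the transcription factor gene Fli1, with 7.92, 8.30 and 7.77. F2rl2, a thrombin receptor gene, had 4.43, 4.53 and 4.28.

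Of 23 other stem and progenitor genes 15 were called (65.2%), against 50.6% of all genes, the largest share among the 3 lists of further genes. Runx1, needed for blood stem cells to form, had 9.99, 10.04 and 9.46 (adjusted p = 7.1e-07, limma). The antigen gene Ly6a had 8.90, 7.58 and 9.30 (adjusted p = 4.1e-05) and Cd93, which endothelial cells also express, had 9.11, 7.10 and 9.26 (adjusted p = 0.00019), both lowest on array 2. Array 2 was the lowest array for 14 of these 23 genes (60.9%), against 34% of all genes. Cd48, a gene of leukocytes and committed progenitors, had 4.25, 3.41 and 3.43.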

How the data were processed

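RNA was amplified before labelling, per the labels' protocols, and measured on 3 Affymetrix exon arrays of 1 group; the precision is limited by their number. The log2 values per probeset were deposited after RMA in Affymetrix Expression Console 1.1, per the submitters' processing notes; the sources used here name neither settings nor build. Probesets were named from the platform's annotation (318760 with 1 symbol, 6684 with several, 931387 unnamed) and 4227 older symbols were updated through a RefSeq table of GRCm38.p6. Gene values were medians over at least 4 probesets. An intercept-only limma model (limma 3.58.1, R 4.3.3) of value minus threshold was tested one-sided across all 18865 genes. Tested on simulated data with these 18865 genes, it called 32 of 50 genes placed 0.5 above the threshold. It called 44 of 50 placed 1 above and 1 of 50 placed at it. The simulated noise was normal and independent, with SDs shuffled among genes and the threshold taken as fixed. These counts need not hold for the real arrays. Alternatives covered probeset summary and minimum, threshold, scaling, variance model, a filter on dim genes and left-out arrays. Named genes were all measured members and, of other lists, up to 3 called genes among those with the largest margins and the lowest gene. Cdh5, Nes and Ptprc serve as markers. Ptprc and Mcpt8 fall outside that rule and were chosen after their values were seen. The members and lists were chosen with earlier results of these data known. Scanner files, scan dates and slides were not used here.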

Additional observations from a re-analysis of the deposited data

Results flagged for a closer look

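Probesets that name more than 1 gene were outside the gene values, and those of the globins gave a signal above the threshold of every array. The 10 probesets that name both alpha globin genes, Hba-a1 and Hba-a2, had a median of 10.72 on array 1, 8.43 on array 2 and 10.68 on array 3, with a mean of 9.94 ± 1.31 (SD, n = 3, log2). All 10 lay above the probeset threshold on all 3 arrays. The 7 probesets that name both Hbb-b1 and Hbb-b2 had a median of 12.12, 9.37 and 11.63, with a mean of 11.04 ± 1.47 (SD, n = 3), and all 7 lay above that threshold too. The difference of array 2 from the mean of arrays 1 and 3 was -2.26 for the alpha and -2.51 for the beta globin probesets, beside -2.21 for the 4 probesets of Hbb-b1 alone. These differences have no test, since array 2 is a single array.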

How the results depend on the processing

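The calls depended mainly on the threshold, on the smallest number of probesets and on array 1. No call of the 43 genes changed under equal quantiles, a mean-variance trend, dim genes left out or probesets at 0 left out. Of the 17 calls, 9 remained with at least 2 probesets a gene (red cell membrane 1, regulators 0, platelet 0), with 37.0% of all genes called. At the 90th percentile 27 genes were called (red cell membrane 6, regulators 2), with 63.5% of all genes. At the 99th percentile and at the other-tissue threshold 2 were called (globin and heme 1, red cell membrane 1, the other groups 0), against 20.1% and 17.6% of all genes by limma. Leaving out 1 array gave 11 to 17 calls (45.4% to 48.5% of all genes), with 0 to 1 among the regulators and 1 to 4 in the platelet group, the lowest without array 1. The weight limma gave to the spread of all genes (prior degrees of freedom) changed as well. It was 6.05 with all arrays, 3.32 without array 1, infinite without array 2 and 11.8 without array 3. Median margins with at least 2 probesets were -0.22 for all 43 genes, 0.30 for globin and heme, -0.34 for red cell membrane, -0.54 for regulators, -0.10 for platelet and -0.58 for progenitor genes. In the same order they were 0.73, 1.1, 0.46, 0.27, 0.85 and 0.22 at the 90th percentile, -0.92, -0.55, -1.19, -1.39, -0.80 and -1.44 at the 99th, and -1.06, -0.69, -1.33, -1.52, -0.94 and -1.57 at the other-tissue threshold. A higher threshold lowers every margin by construction. With at least 8 probesets the regulator margin was 0.22, and the array 2 difference was -0.24 for regulators and 0.081 for progenitor genes. With the mean over probesets that difference was 0.15 for regulators and -0.026 for platelet genes, and the margin of Uros was -0.027. The cause of these changes was not tested. Margins below 0 at the 99th percentile were -0.80 for Uros, -0.34 for Urod, -0.10 for Fech, -0.16 for Slc25a37, -0.19 for Car2, -0.60 for Epor, -0.53 for Gp9, -0.66 for Treml1, -0.63 for Alox12, -0.47 for Plek, -0.25 for Kit, -0.32 for Hlf and -0.036 for Gfi1b. At the other-tissue threshold they were -0.93 for Uros, -0.47 for Urod, -0.23 for Fech, -0.29 for Slc25a37, -0.32 for Car2, -0.73 for Epor, -0.67 for Gp9, -0.79 for Treml1, -0.77 for Alox12, -0.61 for Plek, -0.39 for Kit, -0.45 for Hlf, -0.13 for Lmo2 and -0.17 for Gfi1b. No paired analysis was possible because there is 1 group.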
